A study of Mus musculus with 6 samples.

Results

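To ask which immune cells of a glioma-bearing mouse brain, if any, carried the genes of alternatively activated and border-associated macrophages, 10 genes were followed through a single-cell RNA count matrix of 31053 genes. The 10 genes were chosen by symbol as Arg1, Chil3 and Retnla (alternative activation), Mrc1, Cd163 and Stab1 (scavenger receptors), and Lyve1, Folr2, Pf4 and Cbr2 (genes that, with the receptors, mark macrophages of the meninges, perivascular space and choroid plexus). U87 cells, a human glioblastoma line, carrying either IL33 or the empty vector pcDNA were implanted into the brains of female SCID mice, which lack T and B cells, at 50000 cells per mouse. CD45+ leukocytes were sorted from the tumor-bearing right hemisphere of 3 IL33 mice, taken at 3 weeks, and 3 pcDNA mice, taken at 6 weeks, and the labels give an age of 6 to 8 weeks. Both arms therefore carried the same human line in the same immunodeficient host, sampled at different times.

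The 6 libraries were deposited as 1 matrix in which a barcode suffix from 1 to 6 is the only mark of the library. The sample labels and file headers do not name the mouse behind a suffix, and suffixes were not assigned to mice from their cell or UMI counts, so the matrix was treated as 1 pooled sample, the arms were not compared and no p-value is given. The matrix held 105560763 unique molecular identifiers (UMIs, each counting 1 captured RNA molecule) in 40411 barcodes, of which 38751 passed the filters, 2739 to 10044 per suffix. Median depth of the kept cells was 1523 to 3484 UMIs per cell between suffixes. Barcode sequences recurred between libraries: 3890 sequences were present under at least 2 suffixes, each of the 15 pairs of suffixes shared 509 to 3428 of them, and 14489 of the kept cells (37.4%) carried such a sequence. In the pairs, the log10 UMI totals of the same sequence correlated with r of 0.22 to 0.91 (a description over barcodes), and shared barcodes were shallower, at a median of 929 UMIs against 3137. None of the 45 kept cells with Arg1 had a shared barcode, against 19 of 99 with Chil3, 40 of 352 with Mrc1 and 1660 of 7903 with Stab1. The shares of cells with Arg1 and Chil3 and the main Chil3 levels are given below with and without these barcodes. Levels of the other genes are given only with them.

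Alternative activation is the state that macrophages take up under the type 2 cytokines IL-4 and IL-13, which act through STAT6. Arginase 1 (Arg1) splits arginine into ornithine and urea, Chil3 (Ym1) is a secreted chitinase-like lectin and Retnla (Fizz1 or RELMα) is a secreted cysteine-rich protein. None of these is a macrophage gene alone: group 2 innate lymphoid cells (ILC2), the lymphocytes that answer IL-33 through its receptor Il1rl1 (ST2), are known to make arginase 1, and neutrophil precursors and monocytes make Chil3. Border macrophages sit at the edges of the brain, clear material through Mrc1 (the mannose receptor, CD206), Cd163 (the hemoglobin scavenger receptor) and Stab1 (stabilin 1), and differ in these genes from microglia, the macrophages of the brain tissue itself.

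Retnla is the classic STAT6 target of the set, and its promoter is shown beside those of Mrc1, Chil3 and Stab1 because these 4 genes ran from nearly absent to broadly present in these cells. Each line gives the 250 bases before the RefSeq transcription start (GRCm38.p6), read 5′ to 3′ on the gene's strand. Capitals mark matches on either strand to TTCNNNNGAA (the STAT6-type site), TTGCNNAA (the C/EBP-type site) or GAGGAAG (the PU.1-type site).
Retnla, chr16:48842359-48842608, plus strand: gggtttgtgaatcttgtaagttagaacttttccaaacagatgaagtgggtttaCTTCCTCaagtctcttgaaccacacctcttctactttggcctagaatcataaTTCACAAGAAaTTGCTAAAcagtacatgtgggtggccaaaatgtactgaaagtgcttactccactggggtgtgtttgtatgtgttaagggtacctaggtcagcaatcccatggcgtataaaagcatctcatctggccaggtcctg
Mrc1, chr2:14229164-14229413, plus strand: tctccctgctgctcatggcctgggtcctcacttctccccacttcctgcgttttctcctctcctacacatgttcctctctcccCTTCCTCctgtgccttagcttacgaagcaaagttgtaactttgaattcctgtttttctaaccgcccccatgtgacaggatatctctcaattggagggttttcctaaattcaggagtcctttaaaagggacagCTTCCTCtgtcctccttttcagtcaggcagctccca
Chil3, chr3:106167565-106167814, minus strand: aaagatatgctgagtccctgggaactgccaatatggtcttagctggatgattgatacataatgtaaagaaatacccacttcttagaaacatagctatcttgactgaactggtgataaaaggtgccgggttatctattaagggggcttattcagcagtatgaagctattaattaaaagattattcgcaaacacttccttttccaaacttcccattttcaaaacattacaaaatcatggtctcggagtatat
Stab1, chr14:31168642-31168891, minus strand: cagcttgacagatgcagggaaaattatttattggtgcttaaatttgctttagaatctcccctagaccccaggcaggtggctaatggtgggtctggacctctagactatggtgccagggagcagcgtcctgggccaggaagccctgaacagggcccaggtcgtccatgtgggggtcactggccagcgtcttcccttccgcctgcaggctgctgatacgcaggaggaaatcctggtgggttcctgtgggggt
The Retnla window held 1 match to each of the 3 motifs, the STAT6-type and C/EBP-type matches lying next to each other. The Mrc1 window held 2 PU.1-type matches, and the Chil3 and Stab1 windows held none of the letters searched. Among 32851 promoter windows of this length, 5.85% held the STAT6-type, 9.56% the C/EBP-type and 10.6% the PU.1-type letters, so the matches describe these windows and show no binding. Windows were found for 8 of the 10 genes and not for Arg1 or Lyve1.

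Cells were sorted into groups by counts of marker genes, none of which is among the 10. A cell with UMIs of at least 3 of 7 monocyte markers (Ly6c2, Ccr2, Ms4a4c, Ifitm6, Hp, Vcan, Fn1) entered the monocyte gate, for example, and a cell with at least 2 of 6 microglia markers (Tmem119, Gpr34, Olfml3, P2ry12, Cx3cr1, Selplg) that passed no other gate was called microglia and split at an Apoe share of 1% of its UMIs. The groups were 21074 Apoe-low and 16175 Apoe-high microglia, 173 cells of the monocyte gate, 37 of a border macrophage marker gate, 72 that passed both of these (the border and monocyte gate), 49 of the dendritic, 75 of the granulocyte, 41 of the ILC2 and 196 of the NK gate. Microglia markers reached into the other gates: 47.4% of the monocyte, 83.8% of the border, 48.8% of the ILC2 and 52.6% of the NK gate also passed the microglia gate. Of the kept cells, 46.9% held a UMI of Ptprc, the gene of CD45, as did 13.7% of 175 cells with choroid plexus epithelium markers. Shared barcodes made up 66.9% of Apoe-high microglia, 14.9% of Apoe-low microglia, 16.2% of the border gate and 2.44 to 14.7% of the monocyte, border and monocyte, dendritic, granulocyte, ILC2 and NK gates.

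The 10 genes did not settle the name of the border gate. Its 37 cells held 0 UMIs of Lyve1, Cd163 and Cbr2, but over all kept cells Lyve1 was at 0 and Cd163 at 10 UMIs. The same 37 cells held 18 UMIs of Mrc1, 5 of Folr2, 2 of Pf4 and 24 of Stab1, with levels given below. Of the gate's own markers, Cd209f was at 0 in every kept cell. The markers that brought cells in were Dab2 (32 cells, 59 UMIs), Colec12 (25 cells) and Ms4a7 (22 cells, 102 UMIs), so these are called cells of the border marker gate, named for the rule alone.

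**Figure D1:**
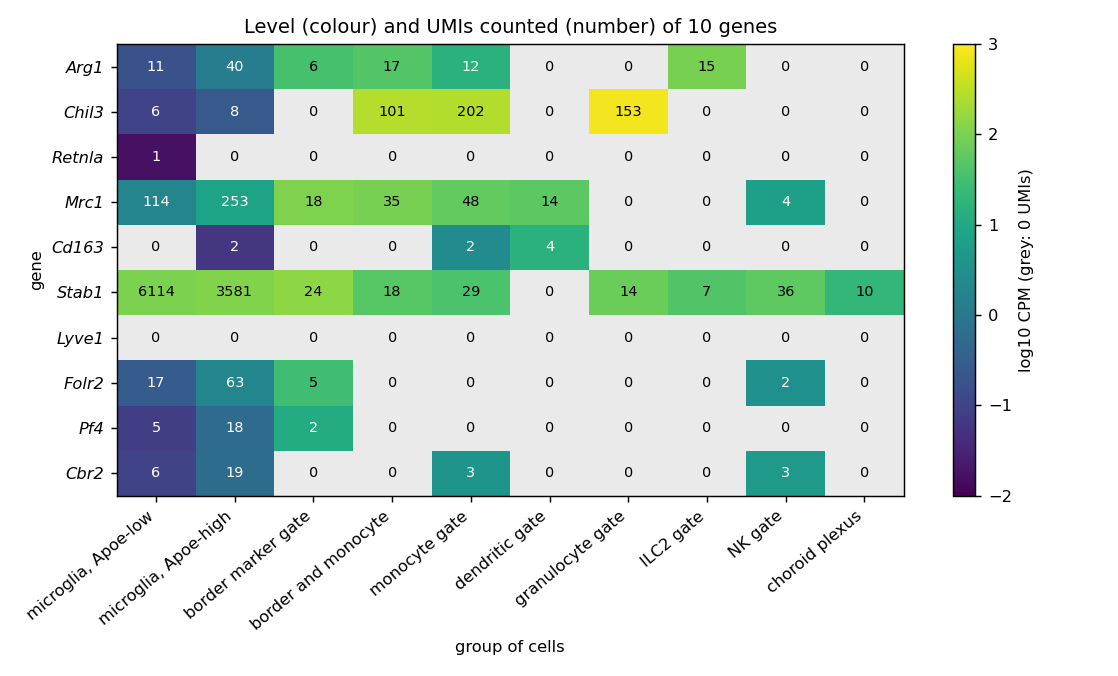
Level of each of the 10 genes (rows) in 10 groups of kept cells (columns); colour is log10 CPM, grey marks 0 UMIs and the printed number is the UMIs counted. Stab1 has counts in all groups but the dendritic gate, Chil3 is concentrated in monocyte and granulocyte gates (135 of the 153 granulocyte UMIs in shared barcodes), and the Lyve1 row is empty.

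Of the 10 genes, only Stab1 was widely detected. Over all kept cells, Stab1 gave 9894 UMIs in 7903 cells, Chil3 578 in 99, Mrc1 500 in 352, Arg1 104 in 45, Folr2 88 in 79, Cbr2 34 in 32, Pf4 25 in 23, Cd163 10 in 7 and Retnla 1 in 1. Lyve1, the hyaluronan receptor of lymphatic vessels and border macrophages, was not counted once, also among the barcodes outside the filters, and a count of 0 here allows up to 0.0314 CPM (CPM is a gene's UMIs per 1000000 UMIs of the group). These figures, like the intervals below (exact 95% Poisson for CPM, exact 95% binomial for shares), cover counting error only.

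Against Apoe-low microglia, members were counted as higher where the CPM ratio was at least 4 and both groups together held at least 20 UMIs. In the border marker gate 2 of the 3 members measurable by that rule passed it (Mrc1 and Folr2), where 5.05% of 12321 genes did. In the border and monocyte gate 3 of 4 passed (Arg1, Mrc1 and Chil3; 6.14% of genes), and the same 3 of 4 passed in the monocyte gate (6.01% of genes). Only Mrc1 passed in the dendritic gate (1 of 2; 7.46%), Chil3 in the granulocyte gate (1 of 3; 4.86%) and Arg1 in the ILC2 gate (1 of 3; 7.84%), while none of 2 passed in the NK gate (5.51%). The border marker count fell to 1 when any of suffixes 1, 2, 4, 5 or 6 was left out, the NK count rose to 1 without suffix 4, 5 or 6, and the border marker and granulocyte counts were 1 and 0 when cells passing the microglia gate were left out. Members at low counts could pass only through the gate where they were high, so these counts describe where the UMIs lay and do not measure enrichment of the set.

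Arg1 had its highest level in ILC2-gated cells. The 41 cells of this gate held 15 Arg1 UMIs in 8 cells, a level of 95.1 CPM (53.2 to 156.9), against 46.5 (27.1 to 74.5) in the border and monocyte gate, 35.3 (12.9 to 76.8) in the border marker gate and 15.7 (8.12 to 27.4) in the monocyte gate. The intervals of the first 3 gates overlapped. Arg1 was lower in Apoe-high microglia, at 1.25 CPM (40 UMIs in 12 cells), and in Apoe-low microglia, at 0.185 CPM (11 UMIs in 11 cells). It was not counted in the 196 NK-gated, 75 granulocyte-gated or 49 dendritic cells, where a count of 0 allows 4.89, 15.9 and 11.7 CPM. Among ILC2-gated cells, Arg1 was carried by 3 of 6 cells of suffix 1, 2 of 10 of suffix 4 and 3 of 13 of suffix 6, and by none of the 12 cells of the other suffixes. Of the 8 gated carriers, 3 held Stab1 as well and none held Mrc1 or Cd163, and the gate also held Il1rl1 at 120.5 CPM, a gene that helped to define it.

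Outside the ILC2 gate, Arg1 came almost from 1 library. Suffix 6 held 82 of the 89 UMIs and 31 of the 37 cells (5.05 CPM), suffix 4 held 6 UMIs in 5 cells and suffix 3 held 1, while suffixes 1, 2 and 5 held 0 in 7685, 10041 and 6468 cells. Without suffix 6, Arg1 was left in 11 kept cells, 0.0334% of cells in place of 0.116%. The median depth of kept cells was 2979 UMIs in suffix 6, the highest after the 3484 of suffix 3, and the part of depth in this difference was not tested.

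**Figure D2:**
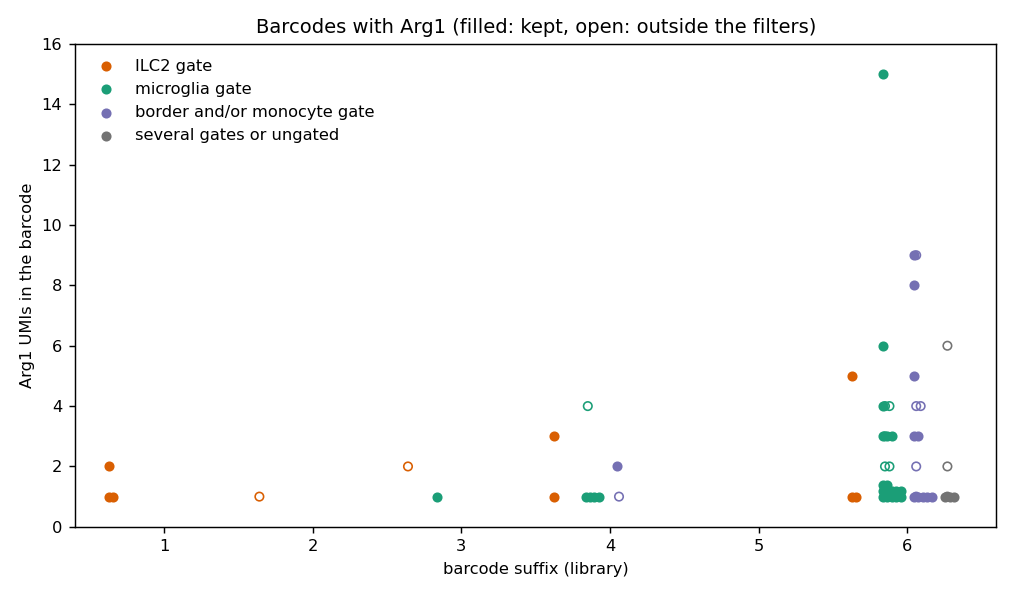
UMIs of Arg1 in each barcode that held any (vertical axis) by barcode suffix (horizontal axis), coloured by the gate passed; filled points are kept cells, open points lie outside the filters, and points of equal value are set slightly apart sideways and upwards. Suffix 5 has none, and the barcodes with 5 or more UMIs all belong to suffix 6.

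Most Arg1 cells rested on a single molecule. Of the 45 kept carriers, 30 held 1 UMI, 2 held 2 and 13 held 3 or more, the highest being 15 UMIs in an Apoe-high microglia-gated cell of suffix 6 with 6895 UMIs in all. By gate, 23 carriers were microglia, 8 ILC2, 6 border and monocyte, 3 monocyte and 2 border marker cells, and 3 passed several gates or none. The microglia-gated carriers were deeper than other microglia (medians of 4361 and 2434 UMIs). Of these carriers, 4 of 23 (17.4%, 4.95 to 38.8), all 4 of suffix 6, held at least 2 border gate markers against 1.38% of non-carriers. At least 2 monocyte markers were held by 2 of 23 (8.70%) against 0.357%, and at least 1 ILC2 marker by 6 of 23 (26.1%, 10.2 to 48.4) against 12.2%. Within suffix 6 the ILC2 marker share was not higher in carriers, at 2 of 18 (11.1%) against 13.4%. Of the ILC2 markers, Il7r was found in 3980 kept cells, at 52.6 CPM in Apoe-low microglia, and Rora in 614. A single ILC2 marker in a microglia-gated cell therefore cannot be read as ILC2 RNA.

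The 31 suffix 6 carriers outside the ILC2 gate, a selection made after the values were seen, were compared with the other 5781 such cells of that library. Among 11256 genes measurable in this contrast, 319 (2.83%) were at least 4-fold higher in carriers. After Arg1 itself, the largest ratios were for Ms4a7, a membrane protein of border and monocyte-derived macrophages (424 against 9.83 CPM, 13 of 31 cells), Fn1 (fibronectin, 535 against 28.9 CPM), and the MHC class II genes H2-Eb1 (1584 against 85.9 CPM) and H2-Aa (3459 against 192 CPM). Saa3 (an acute phase serum amyloid), the chemokine gene Cxcl2, the lectin gene Clec4n, Dab2 and Cd74 (the class II invariant chain, 6884 against 496 CPM) completed the first 10. Of the gate marker lists, 3 of 6 measurable border and 3 of 6 measurable monocyte markers were at least 4-fold higher. The counts were 1 of 5 for ILC2, 1 of 9 for granulocyte, 0 of 6 for NK and 0 of 6 for microglia markers. In suffix 6, carriers were 2 of 11 border marker, 5 of 30 border and monocyte and 3 of 63 monocyte cells. Those gates are defined by these markers, Ms4a7, Fn1 and Dab2 among them, so the marker counts are not separate evidence on what the carriers are. Ccr2, a chemokine receptor of monocytes, stood at 924 against 86.1 CPM and Hp at 97.3 against 23.8, whereas Ly6c2 stood at 20.8 against 30.2 and Ifitm6 at 0 against 23.1. Carriers were also deeper, with a median of 4587 against 2969 UMIs, and the part of depth in these ratios was not tested. The alternative activation list had 2 of 22 measurable genes at least 4-fold higher, Il1rn (62.5 against 6.53 CPM) and Msr1 (139 against 15.7 CPM). A list of other border macrophage genes had 6 of 18, of which Cd38 and Ccl8 held 2 and 3 UMIs in carriers. Both lists, described below, were chosen with earlier results of these data known.

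Chil3 lay in granulocyte-gated and monocyte-gated cells and hardly anywhere else. Its level was 809 CPM (686 to 947) in the granulocyte gate, 276 (225 to 336) in the border and monocyte gate and 264 (229 to 304) in the monocyte gate, with overlapping intervals in the latter 2. The granulocyte level rested on shared barcodes, and without them it was 103 CPM (61.2 to 163, 18 UMIs), below the monocyte gate (270.0) and the border and monocyte gate (266). With the deepest barcode of each shared sequence kept, the granulocyte level was 347 CPM (266 to 445, 62 UMIs), above the 264 and 276 of those gates. It was 1317 CPM with 1 marker more per gate and 231 with 1 fewer. The order of the granulocyte gate against the other 2 thus depended on the setting. The 41 cells that passed several gates held a further 106 UMIs in 11 cells. Chil3 was 0.101 CPM in Apoe-low and 0.249 CPM in Apoe-high microglia, and 0 in the border marker, dendritic, ILC2 and NK gates. Without shared barcodes the Apoe-high level was 0. The 0 of the border marker gate depended on the gate rule. With 1 marker more required in every gate other than microglia, the border marker gate held 15 Chil3 UMIs (383 CPM, 214 to 631). With 1 marker fewer, the dendritic gate held 10 UMIs (7.58 CPM). All 6 suffixes held Chil3, at 47, 137, 41, 139, 91 and 123 UMIs. With every shared barcode left out, 80 of the 99 carriers remained and 194 of the 578 UMIs were lost, leaving 20, 91, 26, 108, 46 and 93 UMIs by suffix. The 99 carriers had 90 distinct barcode sequences.

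Within the granulocyte gate the Chil3 cells were few and not independent. Its 153 UMIs fell in 8 of 75 cells, and these 8 had only 4 distinct barcode sequences. A single sequence was present under all 6 suffixes and accounted for 5 of the 8 cells, with 26, 43, 14, 30 and 21 UMIs in suffixes 1, 2, 3, 4 and 6, and for 168 Chil3 UMIs over the 6 suffixes. The other 3 cells held 17, 1 and 1 UMIs. All but 1 of the 8 also passed the microglia gate, and with such cells left out the granulocyte gate kept 1 Chil3 UMI (38.3 CPM). The 5 cells of the repeated sequence held 79 to 260 UMIs each of Ngp, a granule protein gene of neutrophil precursors, and 0 of Il1b. The cells with 17, 1 and 1 Chil3 UMIs held 510, 40 and 0 UMIs of Ngp and 0 of Il1b, a gene found in 56 of the 67 granulocyte-gated cells without Chil3. Ngp is a marker of the gate, Ngp and Il1b were picked after the Chil3 counts were seen, and the level of Chil3 in granulocytes is uncertain here.

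Monocyte-gated cells were divided more gradually. In the 46 with Chil3, Ly6c2, the surface marker of classical monocytes, was at 1269 CPM (1115 to 1438) against 575 (514 to 640) in the 127 without, and Hp (haptoglobin) at 963 against 494. Genes of antigen presentation and complement went the other way: H2-Aa was at 1517 against 4294 CPM, Cd74 at 3273 against 9402 and C1qa at 280 against 1769.6. In the border and monocyte gate the same genes lay closer together, with Ly6c2 at 814 (645 to 1015) against 984 (869 to 1110) CPM and H2-Aa at 2402 against 2337. Ly6c2 and Hp were among the 7 monocyte markers. Of the others in the monocyte gate, Ifitm6 was at 813 CPM in Chil3 cells against 655, Fn1 at 539 against 349 and Vcan at 46.6 against 7.01. Ccr2 overlapped, at 1911 (1721 to 2116) against 1749 (1642 to 1861), and Ms4a4c was at 885 against 902. These intervals come from molecules and not from mice.

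Retnla was counted once, in an Apoe-low microglia-gated cell of suffix 6 that also held Arg1. Its single UMI equals 0.0105 CPM over all kept cells, with an interval that reaches 0.0583. Among the close relatives of these genes, Retnlb and Chil4 were not counted, whereas Retnlg, a resistin-like gene of neutrophils, reached 5544 CPM in the granulocyte gate, 7682 in the 41 cells that passed several gates and at most 6.34 in every other group. Retnlg is itself a marker of the granulocyte gate, so this spread was partly set by the gate rule. Arg2, the mitochondrial arginase, was at 120 CPM in the border and monocyte gate, 110 in the monocyte gate and 132 in the granulocyte gate, against 0.101 in Apoe-low microglia, and thus reached the granulocyte gate, where Arg1 had no UMI. A comparison of levels between genes was not made, because the assay counts only the 3′ end of an RNA.

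Of Mrc1, Cd163 and Stab1, Mrc1 was the scavenger receptor that followed the monocyte and macrophage gates. It was at 106 CPM (62.7 to 167) in the border marker gate, 95.8 (66.7 to 133) in the border and monocyte gate, 62.8 (46.3 to 83.3) in the monocyte gate and 54.7 (29.9 to 91.8) in the dendritic gate, where neighbours in this order overlapped. Apoe-high microglia were at 7.88 CPM and Apoe-low at 1.91, and the NK gate, whose cells should lack the gene, was at 6.52 CPM (1.78 to 16.7, 4 UMIs in 2 cells), an interval that includes both microglial levels. Granulocyte and ILC2 gates held none.

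The microglial Mrc1 came mostly from 2 libraries. Among Apoe-high microglia, suffix 5 held 147 UMIs (21.7 CPM) and suffix 6 held 83 (14.3 CPM), while the other suffixes held 0 to 11 UMIs (at most 1.54 CPM). The 8 and 93 NK-gated cells of suffixes 5 and 6 held none. In the 8 of suffix 5, 2 UMIs of another gene, Stab1, already made 83.5 CPM, so their 0 could not be told from 21.7 CPM. The pattern among Apoe-low microglia was alike but smaller for suffix 6, at 9.77 CPM in suffix 5, 2.20 in suffix 6 and at most 1.23 elsewhere. Over all kept cells Mrc1 was thus at 17.1 CPM in suffix 5 and 10.2 in suffix 6 against 0.972 to 3.00 in suffixes 1 to 4. Suffix 5 was the shallowest library and had the largest part of shared barcodes (51.0% of its barcodes, against 20.7 to 44.5% in the others), and the bearing of either on Mrc1 was not tested.

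**Figure D3:**
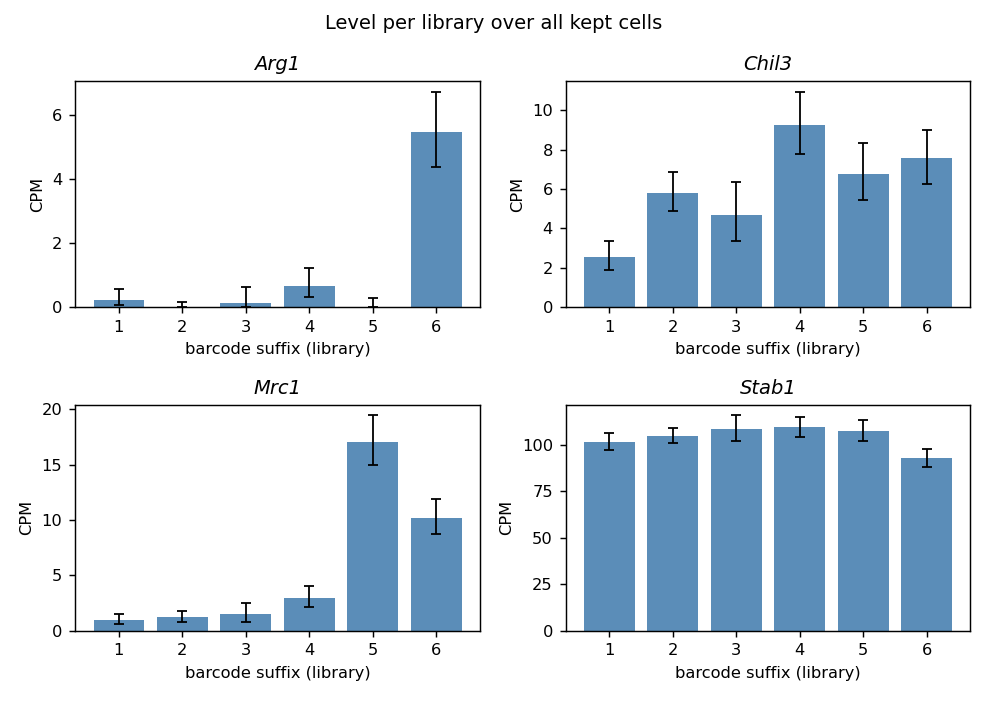
CPM of Arg1, Chil3, Mrc1 and Stab1 over all kept cells of each barcode suffix, with exact 95% Poisson intervals (bars start at 0). Arg1 stands out in suffix 6 and Mrc1 in suffixes 5 and 6, whereas Stab1 stays between 92.7 and 110 CPM.

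Stab1 was not particular to the border marker gate. It was at 103 CPM (100.1 to 105.3) in Apoe-low and 111 CPM (108 to 115) in Apoe-high microglia, and at 141 CPM (90.4 to 210) in the border marker gate, whose interval includes both. Within each suffix the Apoe-high level was 1.01 to 1.24 times the Apoe-low level. Monocyte (38.0 CPM), border and monocyte (49.3 CPM) and choroid plexus marker cells (20.5 CPM) were lower, and the dendritic gate held 0 UMIs, which allows 11.7 CPM. The NK gate stood at 58.7 CPM, but all of its 36 UMIs came from the 103 cells that also passed the microglia gate and none from the 93 that did not. Stab1 thus moved with microglia markers in this gate, and receptor shares are given below both with and without Stab1.

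Cd163 and the remaining border genes were rare. The 10 Cd163 UMIs lay in 4 dendritic cells (4 UMIs, 15.6 CPM), 1 monocyte (2 UMIs), 1 Apoe-high microglia (2 UMIs) and 1 ungated cell (2 UMIs). Folr2, a folate receptor of resident macrophages, was at 29.4 CPM (9.54 to 68.6, 5 UMIs) in the border marker gate and at 1.96 CPM in Apoe-high against 0.285 in Apoe-low microglia, both under the 3.26 CPM (2 UMIs) of the NK gate. Pf4, the platelet factor 4 gene that border macrophages also use, had 2 UMIs in the border marker gate (11.8 CPM) and 18 in Apoe-high microglia (0.560 CPM), and no cell passed the platelet marker gate. Cbr2, a carbonyl reductase, had 3 UMIs in the NK gate (4.89 CPM) and 3 in the monocyte gate (3.93 CPM), so its monocyte level was not above that of cells that should lack it.

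Between the 2 microglia groups, 5 of 6 measurable members were at least 4-fold higher in Apoe-high cells (Arg1, Mrc1, Pf4, Cbr2 and Folr2), where 1.18% of 12797 genes were. These levels were low, between 0.560 and 7.88 CPM. Arg1 (40 and 11 UMIs), Folr2 (63 and 17), Pf4 (18 and 5) and Cbr2 (19 and 6) were measurable only through the group where they were higher. The count therefore describes where the UMIs lay and does not measure enrichment. Of the 40 Arg1 UMIs in Apoe-high microglia, 37 came from suffix 6, in 9 cells. Within suffixes the Mrc1 ratio was 1.43, 2.46, 0, 1.73, 2.23 and 6.50, so the pooled call held in suffix 6 alone. Apoe-high microglia were shallower (median 1253 against 2863 UMIs) and held the bulk of the shared barcodes.

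A minority of cells with Arg1, Chil3 or Retnla also carried Mrc1, Cd163 or Stab1, the scavenger receptors among the 10 genes. Of 143 such cells, 41 (28.7%, 21.4 to 36.8) held a UMI of Mrc1, Cd163 or Stab1, and 14 (9.79%, 5.46 to 15.9) held Mrc1 or Cd163. By gene, 19 of 45 Arg1 cells (42.2%, 27.7 to 57.8) held a receptor against 21.0% of cells without Arg1, at median depths of 4546 and 2417.5 UMIs, and 22 of 99 Chil3 cells (22.2%, 14.5 to 31.7) did against 21.0%. When every cell was thinned to 500 UMIs, the Arg1 share was 4.44% (2 of 45) against 5.47% and the Chil3 share 6.06% (6 of 99) against 5.47%. The Arg1 excess was thus not seen at equal depth, where few UMIs remain. Msr1, the class A scavenger receptor, is not among the 10 genes and was not counted in these shares. In the monocyte gate 33 of 46 Chil3 cells and 64 of 127 others held Msr1. In the border and monocyte gate 17 of 20 and 45 of 52 did.

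Mrc1 or Cd163 was held by 4 of 45 Arg1 cells (8.89%, 2.48 to 21.2) against 0.907% of other cells and by 10 of 99 Chil3 cells (10.1%, 4.95 to 17.8) against 0.893%, all of them through Mrc1. Thinned to 500 UMIs, 0 of 45 Arg1 cells and 4 of 99 Chil3 cells (4.04%, 1.11 to 10.0) held Mrc1 or Cd163, against 0.178 and 0.168% of the cells without. Within the 2 gates that held most Chil3 cells, the carriers were not higher. In the monocyte gate 4 of 46 Chil3 cells (8.70%) and 23 of 127 others (18.1%) held Mrc1 or Cd163, and in the border and monocyte gate 5 of 20 (25.0%) and 14 of 52 (26.9%) did. In Apoe-low microglia 1 of 6 Chil3 cells (16.7%, 0.421 to 64.1) and 92 of 21068 others (0.437%) held Mrc1 or Cd163. The interval of these carriers includes the share of the others. The 4 Arg1 cells with Mrc1 were spread over the gates: 1 of 6 carriers against 18 of 66 other cells (27.3%) in the border and monocyte gate, 1 of 3 against 26 of 170 (15.3%) in the monocyte gate, 1 of 12 against 179 of 16163 (1.11%) in Apoe-high microglia and 1 of 2 in the border marker gate, with 0 of 8 against 0 of 33 in the ILC2 gate. Single cells cannot show whether these shares differ. Of the 3 alternative activation genes, Arg1 and Chil3 met in 1 cell, Arg1 and Retnla in 1, and Chil3 and Retnla in none. No cell held Cd163 together with any of the 3.

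**Figure D4:**
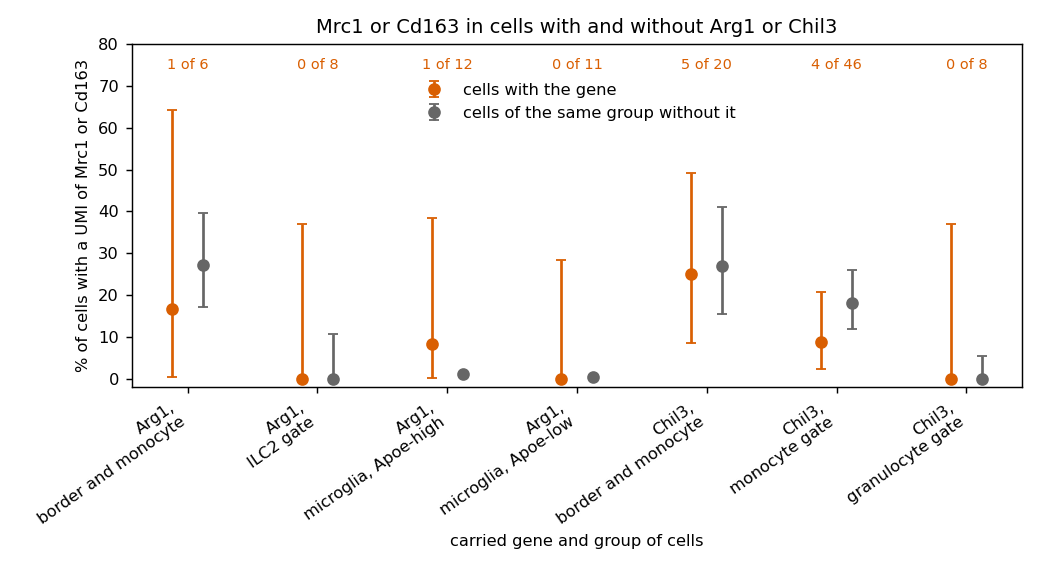
Percent of cells with a UMI of Mrc1 or Cd163 among cells that carried Arg1 or Chil3 (orange, with the number of carriers above) and among the other cells of the same group (grey), with exact 95% binomial intervals. In the monocyte-marker groups the Chil3 carriers sit at or below the other cells, and all intervals of carriers are wide.

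Cells with several border genes existed but were few. Of the 7 border and receptor genes, 8212 cells held at least 1 (almost always Stab1), 168 at least 2 and 14 at least 3 (0.0361%, 0.0198 to 0.0606). All 14 held both Mrc1 and Stab1, 8 held Folr2, 5 Pf4, 2 Cbr2 and 1 Cd163, and none held Arg1, Chil3 or Retnla, which 0.369% of all kept cells did, so that 14 cells are too few to show a lack of these genes. Suffix 5 gave 11 of the 14, and without that suffix 3 cells remained (0.00929%). By gate 10 were Apoe-high microglia, 2 border marker cells, 1 Apoe-low microglia and 1 ungated, 13 passed the microglia gate, and 1 had a shared barcode. Their median depth was 4905.5 UMIs against 2420 over all kept cells, and the part of depth in this count was not tested.

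The leading genes of these 14 cells, after Mrc1, were Saa3 (668 against 17.2 CPM, 3 of 14 cells), the chemokine genes Ccl7 (750 against 63.7 CPM, 5 cells) and Cxcl2 (1063 against 115 CPM, 2 cells), and Spp1 (osteopontin, 2262 against 421 CPM, 7 cells). Lyz2 (lysozyme, 4034 against 918 CPM) was held by 13 of 14 cells, H2afj by 11, Gas6, a ligand of the clearance receptors Axl and Mertk (572 against 131 CPM), by 10, Ifi27l2a by 9 and Cd72 by 7. Saa3 and Cxcl2 thus rested on few cells and Lyz2 on nearly all. The 14 cells were compared with the 38737 other kept cells of every suffix, although 11 were of suffix 5 and 10 were Apoe-high microglia. The part of library and microglia group in these ratios was not tested.

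Other genes of the program were read from lists chosen with earlier results of these data known. The list counts here and in the next paragraph describe these cells and are not separate evidence. Of 30 further alternative activation genes, 29 were in the matrix. Against Apoe-low microglia, 5 of 21 measurable ones were at least 4-fold higher in the border marker gate, where 5.05% of all genes were. Of these 5, Tfec, Clec10a and Cd36 each held 1 UMI in that gate. The counts were 9 of 22 in the border and monocyte gate (6.14% of all genes) and 10 of 23 in the monocyte gate (6.01%). They were 8 of 23 in the dendritic (7.46%), 3 of 21 in the granulocyte (4.86%) and 1 of 20 in the NK gate (5.51%). Cd36 in the border and monocyte gate and Irf4 in the granulocyte gate also passed on 1 UMI. The median ratio of the list was 2.20 in the monocyte gate, where it was 0.803 over all genes measured, and 0.786 against 0.839 in the border marker gate. The members that led in the border and monocyte gate were Arg2 (given above), Msr1 (the class A scavenger receptor, 506 CPM against 1.23), Il1rn (the IL-1 receptor antagonist, 140 CPM against 0.554) and Tfec (a transcription factor induced by IL-4, 112 CPM against 0.319). Clec10a and Mgl2, the galactose-type lectins, and Ccl17 were highest in the dendritic gate, at 203, 66.4 and 102 CPM. The IL-4 receptor gene Il4ra was present throughout, at 143 CPM in Apoe-low microglia, 226 in Apoe-high microglia and 128 in the monocyte gate.

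Of 20 other border macrophage genes, 10 of 18 measurable ones were at least 4-fold higher in the border marker gate, where 5.05% of all genes were. The count was 9 of 18 in the border and monocyte (6.14%) and 8 of 18 in the monocyte gate (6.01%). It was 5 of 18 in the dendritic (7.46%) and 5 of 18 in the granulocyte gate (4.86%). Some of these calls rested on 1 UMI in the gate. They were Cd36 in the border marker gate, Cd36 and Igf1 in the border and monocyte gate, and Siglec1 and Igf1 in the granulocyte gate. Apoe-high microglia had 5 of 19 (1.18%), among them Apoe, whose call was fixed by the split of the microglia. The NK gate had 1 of 18 (5.51%). Those higher in the border marker gate included Clec12a (82.3 CPM against 0.470), H2-Aa (2610 against 28.6), Tgfbi (747 against 21.7), Ccl7 (606 against 35.3) and Apoe, by which the Apoe-low group was itself chosen. Clec12a, H2-Aa and Tgfbi were higher still in the monocyte gate, at 173, 3592 and 1625 CPM, whereas Ccl7 was at 51.1 CPM there.

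For the 4 members with at least 100 UMIs, genes with the most alike pattern were sought over 33 sums of cells (group by suffix, at least 20 cells each) and 11308 genes. Arg1 was most like Hal (Pearson r = 0.78), Catsperg1 (0.74) and Ms4a7 (0.73, itself a gate marker), Mrc1 like Cfp (0.87), H2-Eb1 (0.86) and Clec4a1 (0.85), Chil3 like Slfn1 (0.96), Hp (0.93, a gate marker) and Sirpb1b (0.92), and Stab1 like Gpr84 (0.90), Daglb (0.88) and Itgb5 (0.88). The sums share libraries and were built from gates, and these coefficients are a description. No sum came from the ILC2 or the border marker gate, which held at most 13 and 11 cells in a suffix. The Arg1 pattern thus leaves out the gate where Arg1 was highest. The granulocyte sums, of suffixes 4 and 6, took all their Chil3 UMIs (30 and 21) from 1 barcode sequence.

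By the GENCODE M21 annotation of GRCm38, the members lie at separate loci: Arg1 on chromosome 10 (24915221 to 24927484, minus strand), Mrc1 on 2 (14229392 to 14332057, plus), Chil3 on 3 (106147554 to 106167564, minus), Retnla on 16 (48842551 to 48844461, plus) and Stab1 on 14 (31139013 to 31168641, minus). Folr2 (101839988 to 101857194) and Lyve1 (110850607 to 110863239) both lie on the minus strand of chromosome 7.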

How the data were processed

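CD45+ cells of 6 mice were profiled with 10x Chromium 3′ v2 chemistry. The authors ran Cell Ranger 3.1, which aligned reads to mm10 with STAR, counted UMIs per gene and cell and joined the libraries, and per the study's methods the libraries were sequenced in 3 batches that the suffixes do not name. Whether the joining step evened out depth between libraries is not given in the sources used here. The deposited values are raw UMI counts per gene and barcode, and they were used as deposited.

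Barcodes with more than 200 and at most 2500 genes and under 5% mitochondrial counts were kept, after the study's limits. Doublets were not called, and 41 cells passing several gates were kept as a group of their own. Counts were summed over cells and divided by the summed totals to give CPM. Genes were named by rule: the 10 members, list genes at least 4-fold higher in a gate (at most 6 a list), the 3 most alike genes (log2 of CPM + 10), and the first 10 genes of cells with at least 3 border members among genes with at least 50 CPM and 20 UMIs. The same limit was used to rank genes of the suffix 6 Arg1 carriers. Ptprc, Ccr2, Il4ra, Clec10a, Mgl2, Ccl17, the paralogs and the genes set beside Chil3 were named after their values were seen. Members, lists and gates were chosen with earlier results of these data known. Groups rest on no cluster names of the study. The alternatives were other filters, gates with 1 marker fewer or more, gated cells with microglia markers left out, thinning to 500 UMIs, leaving out each suffix, and, chosen after seeing the data, leaving out shared barcodes. Fold calls, intervals and gates were tested on simulated data. Python 3.11.15, numpy 2.4.6, scipy 1.17.1 and pandas 2.3.3 were used.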

Additional observations from a re-analysis of the deposited data

Results flagged for a closer look

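The 1660 barcodes outside the filters, which the report's groups leave out, also held 8 of the 10 genes. They carried 55 UMIs of Arg1 in 20 barcodes, 148 of Chil3 in 30, 129 of Mrc1 in 77, 6 of Cd163 in 6, 17 of Pf4 in 12, 5 of Cbr2 in 4, 24 of Folr2 in 23 and 1100 of Stab1 in 639. Arg1 stood at 5.47 CPM (4.12 to 7.13) outside the filters against 1.09 (0.890 to 1.32) in kept cells, Mrc1 at 12.8 against 5.23 and Chil3 at 14.7 against 6.05, whereas Stab1 stood at 109 against 104. Of the 20 barcodes with Arg1, 16 belonged to suffix 6, as did 34 of the 45 kept carriers, and 16 of the 20 were left out for having more than 2500 genes. The upper limit on genes thus removed 46 of all Arg1 UMIs (28.9%) and 148 of all Chil3 UMIs (20.4%).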

How the results depend on the processing

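Of 1350 recomputed levels of the 10 genes (90 levels under 15 alternatives), 1245 stayed within the 95% interval of the reported level and 105 did not. Levels at 0 UMIs, such as Lyve1 in every group, could not move where an alternative only left out cells or thinned them. The tally is therefore no measure of stability for such levels. No paired analysis was possible because no label ties a barcode suffix to a replicate number, and suffixes were not matched to samples from their values. Leaving out 1 suffix at a time moved the share of cells with Arg1 between 0.0334% (without suffix 6) and 0.157% (without suffix 2), with Chil3 between 0.216 and 0.303%, with Retnla between 0 (without suffix 6) and 0.00348%, and with at least 3 border members between 0.00929% (without suffix 5) and 0.0453%. The carriers with a scavenger receptor (Mrc1, Cd163 or Stab1) ranged from 23.2 to 31.2%, and those with Mrc1 or Cd163 from 8.53 to 11.2%. Members at least 4-fold higher ranged from 1 to 2 in the border marker gate (1 without any of suffixes 1, 2, 4, 5 or 6), from 2 to 3 in the monocyte and in the border and monocyte gates, and from 0 to 1 in the NK gate (1 without suffix 4, 5 or 6). With no upper limit on genes, 40.2% of carriers held a receptor, 0.325% of cells held Chil3 and 1 member passed in the NK gate. With at least 1000 UMIs, 0.321% held Chil3. With under 10% mitochondrial counts, or with 1 marker fewer per gate, 1 member passed in the NK gate. With gated cells that held microglia markers left out, 0.151% held Chil3, and 1 member passed in the border marker gate and 0 in the granulocyte gate. Thinned to 500 UMIs, Arg1 was held by 0.0465%, Chil3 by 0.119% and Retnla by 0%, 4.69% of carriers held a receptor and 3.12% Mrc1 or Cd163, no cell (0%) held 3 border members, and 1 member passed in each of the border marker, border and monocyte, and NK gates. With shared barcodes left out, Arg1 was held by 0.185% and Chil3 by 0.330% of cells, the number of cells falling. With the deepest of each kept, 0.160% held Arg1. The granulocyte level of Chil3 fell from 809 to 103 CPM without shared barcodes and to 38.3 CPM without microglia-marker cells. It was 347 CPM with the deepest barcode of each shared sequence kept, 1317 with 1 marker more per gate and 231 with 1 fewer. Depth limits these shares: 30 of 45 Arg1 carriers and 37 of 99 Chil3 carriers rest on 1 UMI.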
